A study of Mus musculus with 6 samples.

Results

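Kelch-like proteins are substrate adaptors of a ubiquitin ligase. Each one binds the scaffold protein CUL3 through an N-terminal BTB domain and a BACK domain, and holds its substrate with a C-terminal propeller of Kelch repeats, so that a ubiquitin-charged enzyme carried by CUL3 and RBX1 can modify that substrate. Several of them are made mainly in striated muscle. In humans, mutations in KLHL40, KLHL41 and KBTBD13 cause nemaline myopathy, a disease of the thin filaments, and in mice loss of Klhl31 causes a myopathy. The genes described here are the protein-coding mouse genes whose GENCODE symbol is Klhl or Kbtbd followed by a number and whose mean expected count over the 6 libraries was at least 10. Of 46 genes with such a symbol, 40 met that minimum, 32 of them Klhl and 8 Kbtbd genes, out of 53947 genes in the tables. The rule used no difference between groups.

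RNA of quadriceps muscle from mice aged 12 weeks was sequenced after removal of ribosomal RNA, with 3 HSALR and 3 WT samples. HSALR mice are transgenic for the human skeletal actin gene, expanded by some 220 CTG repeats, and are used to model myotonic dystrophy type 1, in which expanded CUG RNA binds MBNL splicing factors. The actin gene is active in muscle fibres, so the other cells of the tissue are not its target. WT mice lack the transgene, no treatment is described for either group, and the labels give no strain, litter or sex. Genetic background and the repeats therefore cannot be told apart in any difference below. The labels do not state that the samples came from separate animals, and p-values refer only to the spread between samples.

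The libraries of HSALR replicates 1, 2 and 3 held 11468959, 11762822 and 13220792 counts, against 14939462, 15023710 and 14048603 counts in WT replicates 1, 2 and 3. HSALR replicate 1 stood apart, with 43.9% of its counts in 7SL and 7SK RNA (abundant small RNAs of polymerase III), against 18.8% and 24.0% in the other HSALR libraries and 14.1% to 15.5% in WT. Defining genes of skeletal muscle fibres were present in every library, with a summed level of 12290 to 43960 TPM (a level corrected for transcript length, with a fixed total per library) in HSALR and 49280 to 54630 TPM in WT over the 10 genes listed. The 4 cardiac markers summed to 0.62 to 1.14 TPM in HSALR and 0.21 to 4.58 TPM in WT. Of these Myl7 was at 0 throughout, while Myh6 reached 0.99 TPM in HSALR replicate 1 and 4.58 TPM in WT replicate 2. Tnni3 had 0.15, 0.3 and 0.36 TPM in HSALR replicates 1, 2 and 3, and 0 TPM in WT. All 10 fibre markers had a negative log2 fold change (median -0.47) and 2 of them were called lower. In contrast, all 6 fibroblast markers were positive (median 1.01), with 1 called higher. All 6 macrophage markers were positive as well (median 1.26), with 5 called higher. Of the endothelial, adipocyte, Schwann, satellite and smooth muscle cell markers 0 were called. The part of these shifts in the Kelch-like values was not tested. Since whole tissue was sequenced, fewer cells of a type and less RNA per cell cannot be told apart.

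All 40 members passed the count filter of the test. Levels are given as CPM (counts relative to the library total after TMM scaling), fold changes as log2 of HSALR over WT with their SE, and a gene was called when the p of edgeR's quasi-likelihood test, adjusted by Benjamini-Hochberg over all 13576 genes tested, was below 0.05. Of the 40 members, 5 were called lower in HSALR (12.5%) and 0 were called higher. Over all genes 11.8% were called, 7.48% lower and 4.28% higher, so the share of members called was close to that of all genes. With upper-quartile scaling the split over all genes was 728 higher and 781 lower, against 581 higher and 1016 lower here. At an unadjusted p below 0.05, edgeR gave 13 of the 40 members, 5 higher and 8 lower, against 4326 of all 13576 genes. DESeq2 called 7 members lower and 1 higher (Kbtbd11), against 1264 lower and 1164 higher over all genes. With limma-voom 5 members were called lower and 0 higher, against 987 and 443 over all genes. These were not the same 5 as with edgeR, since Klhl33 was lost and Kbtbd8 was gained. The members' fold changes had a median of -0.0025 on the log2 scale and lay between -1.30 and 1.49, against a median of 0.04 over all genes. Of the 40 values 20 were negative, against 47.1% of all genes. The CPM values of the groups did not overlap for 14 members (35.0%), 5 higher and 9 lower in HSALR, against 37.8% of all genes.

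**Figure D1:**
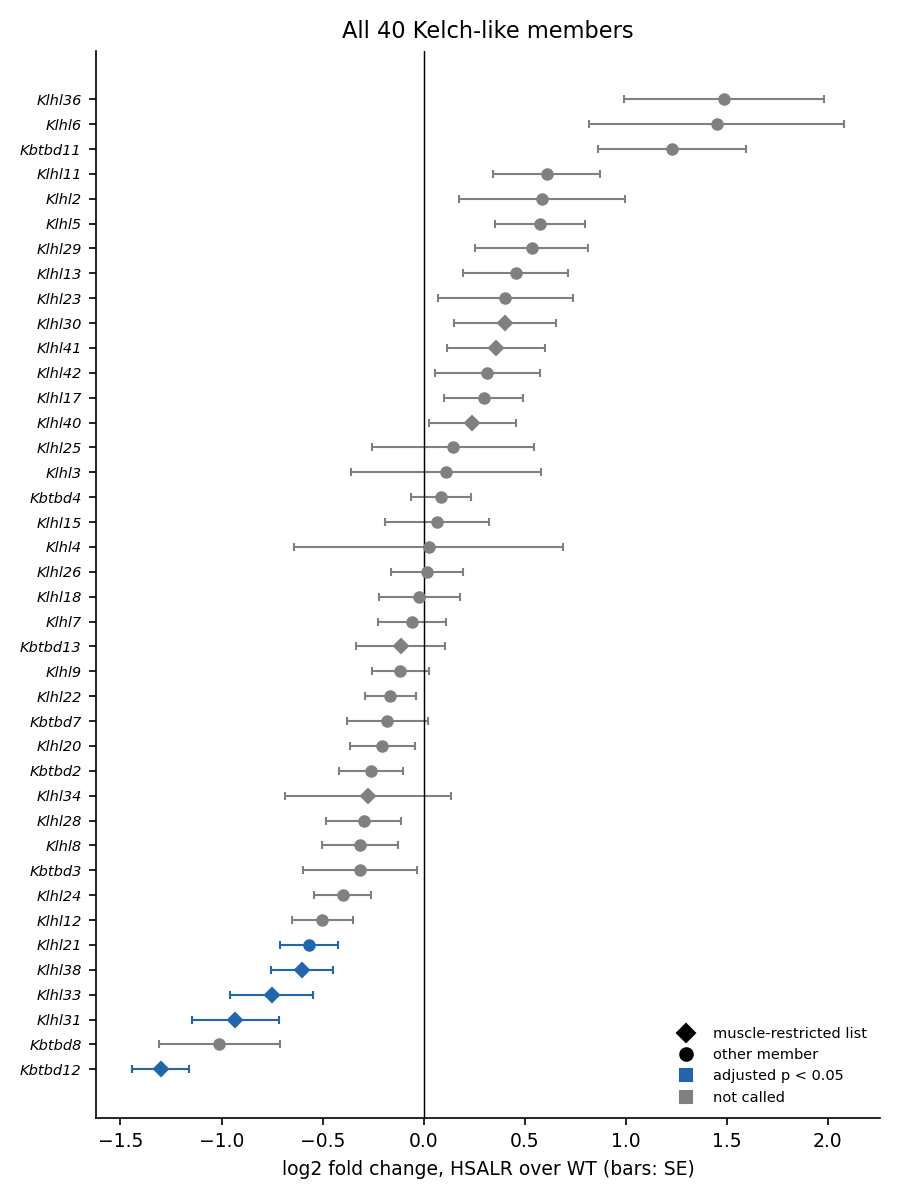
Log2 fold change of HSALR over WT for each of the 40 members, one row per gene, with bars of 1 SE on each side (3 HSALR and 3 WT libraries). Diamonds are genes of the muscle-restricted list and blue marks an adjusted p below 0.05. The 5 called genes lie between -1.30 and -0.57, and 4 of them are diamonds.

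Most of the called members were muscle genes. A list of 9 Kelch-like genes made mainly in striated muscle (Klhl30, Klhl31, Klhl33, Klhl34, Klhl38, Klhl40, Klhl41, Kbtbd12 and Kbtbd13) held 4 of the 5 genes called lower, and their median was -0.28 on the log2 scale. The 31 other members held 1 gene called lower, Klhl21, with a median of 0.02. The list was drawn up with earlier results of these data known, and its counts are a description. Of its genes 44.4% were called lower, against 7.48% of all genes, while 6 of its values were negative and 3 positive. The 10 fibre markers described above were all negative, with a lower median than this list (-0.47), and 2 of them were called lower. Whether the falls in this list are part of a wider fall of muscle fibre transcripts was not tested. The summed TPM of the 9 genes made up 62.1%, 72.3% and 70.6% of the summed TPM of all members in HSALR replicates 1, 2 and 3, against 66.2%, 67.8% and 69.0% in WT replicates 1, 2 and 3, so the share of the muscle-restricted genes overlapped between the groups although single genes within the list differed.

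Klhl41, a sarcomeric protein that helps to keep thin filaments stable, had the highest level of the members per length in both groups, 85.5 ± 52.3 TPM in HSALR and 87.4 ± 3.97 TPM in WT (SD, n = 3 each). Klhl31 averaged 29.5 ± 16.3 TPM in HSALR and 74.9 ± 3.32 TPM in WT. Below these in WT came Klhl24, Klhl40 and Kbtbd12, at 36.4 ± 3.83, 34.8 ± 5.32 and 31.8 ± 1.43 TPM, 3 neighbours whose values overlapped. HSALR replicate 1, with the highest 7SL and 7SK share, had the lowest summed TPM of the members (123, against 385 and 285 in the other HSALR libraries), and 7SL and 7SK count towards the fixed total of TPM. The lowest member per length was Klhl3, a regulator of WNK kinases in the kidney, at 0.053 TPM in HSALR and 0.067 TPM in WT. In all, 15 members averaged under 1 TPM in HSALR and 12 in WT. Klhl3 was also the member nearest the minimum of the rule, with a mean count of 10.7, and Klhl32, with 4.78, was the nearest gene left out. The other genes left out were Klhl10 (mean count 1.83), Kbtbd6 (0.223), Klhl35 (0.167), and Klhl1 and Klhl14, both at 0 in every library.

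Kbtbd12 showed the lowest fold change of the 40 members. It lies on the minus strand of chr6:88521296-88614932 (GRCm39), overlaps no other annotated gene, and encodes a BTB-Kelch protein of striated muscle. Its level was 82.9, 97.5 and 75.8 CPM in HSALR replicates 1, 2 and 3, against 215, 206 and 210.5 CPM in WT replicates 1, 2 and 3. Every HSALR library lay below every WT library, by a margin wider than the whole WT range, and the WT libraries were within 10 CPM of each other. The log2 fold change was -1.30 ± 0.14 (SE), with an adjusted p of 0.00389 (edgeR). The call held under 17 of 19 alternative settings, including each library left out in turn. It was lost on TPM values, which were 9.09, 21.5 and 16.9 TPM in HSALR against 32.7, 32.5 and 30.1 TPM in WT (adjusted p = 0.157, limma-trend), and when the effective length of the gene in each library was taken into account, as described next.

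**Figure D2:**
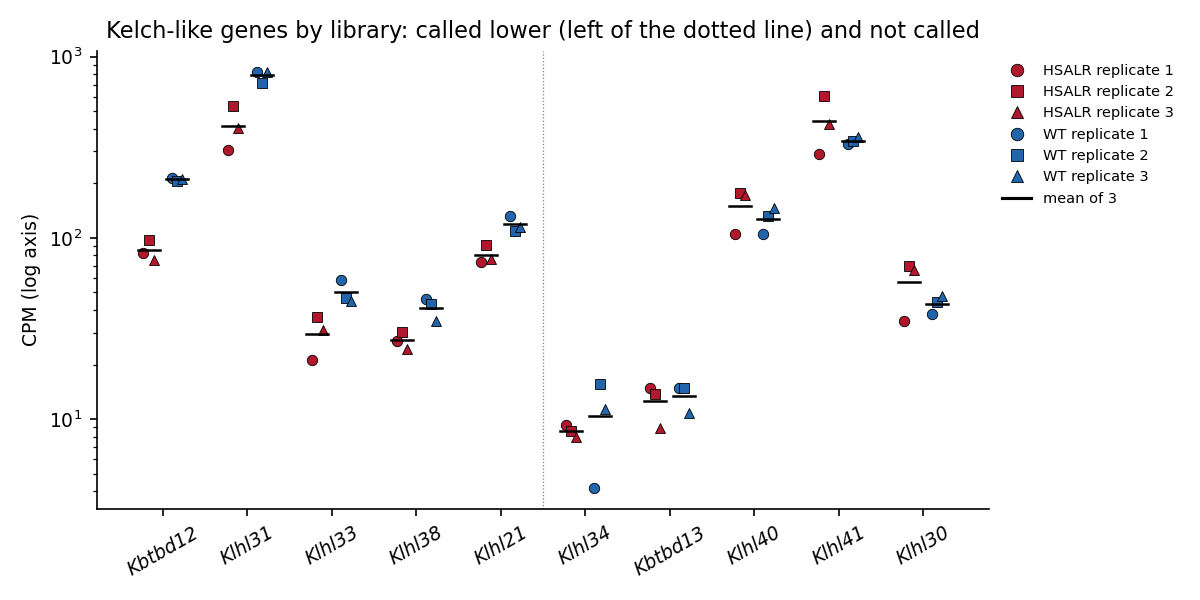
CPM on a log axis in each library for the 5 members called lower (left of the dotted line) and for the 5 genes of the muscle-restricted list that were not called, HSALR in red and WT in blue, with bars at the mean of 3 libraries. Kbtbd12 lies at 75.8 to 97.5 CPM in HSALR and 206 to 215 CPM in WT, while the groups overlap for Klhl40, Klhl41 and Klhl30.

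The counts of Kbtbd12 came with a change in which transcripts were estimated to carry them. The tables give for each gene a transcript length weighted by the estimated share of each isoform, a measure that the choice of members did not use. For Kbtbd12 this weighted length was 2516, 2573 and 2366 bases in HSALR replicates 1, 2 and 3, against 4114, 4164 and 4163 bases in WT replicates 1, 2 and 3. The groups were far apart and each was tight (2485 ± 107 bases in HSALR and 4147 ± 28.5 bases in WT, SD, n = 3 each). On the log2 scale the difference was -0.74 ± 0.03 (SE), with an adjusted p of 0.0253 (limma over 10386 genes). Kbtbd12 was the 1 member called in this test, in which 0.0385% of all genes were called (4 genes). The size of the difference stayed between -0.77 and -0.70 with each library left out, while the adjusted p was 0.0685 without HSALR replicate 1, 0.0646 without HSALR replicate 2, 0.198 without WT replicate 1, 0.157 without WT replicate 2 and 0.238 without WT replicate 3.

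Of the 26 members in the length test, the next was Klhl33, at 2881, 2749 and 3114 bases in HSALR replicates 1, 2 and 3, against 3553, 3364 and 3266 bases in WT replicates 1, 2 and 3. Its groups did not overlap, but the difference of -0.22 ± 0.06 on the log2 scale had an unadjusted p of 0.0127 and an adjusted p of 0.438 (limma). The other 24 members in this test had an unadjusted p above 0.05. Klhl31, Klhl38, Klhl41 and Klhl30, among others, have 1 transcript each in the tables, so that the measure cannot vary for them.

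The tables list 7 transcripts of Kbtbd12. By their lengths in GENCODE M39, 4 of them are short (291 to 1642 bases) and 3 are long (4134 to 5456 bases). The long one of 4134 bases is a single exon with retained intron sequence. The longest, with 6 exons and 5456 bases, ends in an exon of 3602 bases at chr6:88521296-88524897. A short transcript of 3 exons and 1642 bases stops after exon 3, which it reads through into the following intron, so that exon 3 is 414 bases long in place of 271. Another, of 2 exons and 1572 bases, stops in the same way after exon 2, which is 1523 bases long in place of 1176. No level per transcript was analysed here, but the weighted length sets bounds. For a weighted length as in HSALR, short transcripts must make up at least 42.9% and at most 77.9% of the Kbtbd12 molecules estimated, and for one as in WT at most 34.3%. The bounds of single libraries were 40.6% at the lowest in HSALR and 35.2% at the highest in WT, so the ranges of the groups did not meet. For 2 of the 7 transcripts GENCODE M39 holds a newer version than the tables, and their lengths may differ slightly from those used by the authors.

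**Figure D3:**
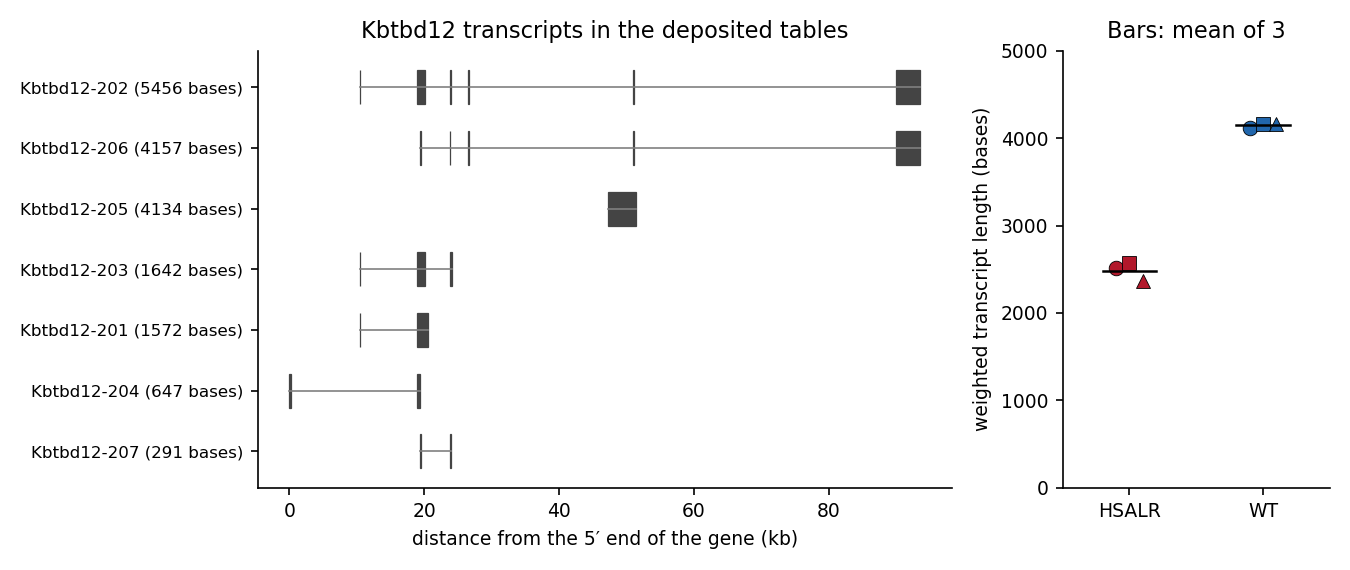
Left, exons (boxes, to scale) of the 7 Kbtbd12 transcripts in the deposited tables, by distance in kb from the 5′ end of the gene, with the length of each transcript beside its name. Right, the weighted transcript length of Kbtbd12 in bases in each HSALR and WT library, with the mean of 3, at 2485 bases in HSALR and 4147 bases in WT.

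The bases at which the short transcripts of 1642 and 1572 bases leave the longest one are shown. The other short transcripts differ from it elsewhere. Since no level per transcript was analysed, the difference in weighted length cannot be placed at these sites. Exon 3 ends on the minus strand within chr6:88590813-88590905 and exon 2 within chr6:88594755-88594784 (GRCm39). Capitals are exon bases of the long transcript, and lower case bases are intron in it and exon in the short one. The lower case stretch after exon 3 is coding sequence in a transcript of 1801 bases in GENCODE M39 that the tables do not list, and its end is the end of that coding sequence.
Kbtbd12 exon 3 end: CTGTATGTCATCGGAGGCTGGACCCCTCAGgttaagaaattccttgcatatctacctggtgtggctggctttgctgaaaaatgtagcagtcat
Kbtbd12 exon 2 end: AAGAATATTGAAATCTATAGgtgtgtatct
Both introns begin with gt, as nearly all introns do. Tetramers with GC between 2 pyrimidines, the letters of the motif bound by MBNL proteins, occurred 4 times in the first 300 bases of the intron after exon 3 and 2 times in that after exon 2, on the strand of the gene. Over 106052 annotated introns the median was 4, and 50.2% of introns had at least 4 and 84.8% at least 2. The counts at Kbtbd12 were thus no higher than in most introns.

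A shorter transcript collects fewer reads per molecule, and the fall of Kbtbd12 was smaller once this was taken into account. Per kb of effective length, its level was 35.1, 40.5 and 34.3 CPM in HSALR replicates 1, 2 and 3, against 54.5, 51.4 and 52.6 CPM in WT replicates 1, 2 and 3. The groups still did not overlap, but the log2 ratio of the means was -0.53, against -1.30 for CPM. With the effective length as an offset in edgeR, an alternative chosen after seeing the data, the fold change was -0.55 and the adjusted p 0.0527. Of the 5 members called lower, Klhl31 was the 1 that stayed called in that fit.

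Klhl31, whose loss in mice is known to raise the level of its substrate filamin C, came next to Klhl41 in TPM in WT. It lies on the plus strand of chr9:77543752-77570084. Its level was 304, 534 and 404 CPM in HSALR replicates 1, 2 and 3, against 828, 719 and 822 CPM in WT replicates 1, 2 and 3. The highest HSALR library stayed below the lowest WT library, and the HSALR libraries were spread widely. The log2 fold change was -0.93 ± 0.21 (SE), with an adjusted p of 0.0281 (edgeR). The call was lost in 8 of 19 settings, among them without HSALR replicate 3 or without any 1 of the WT libraries (adjusted p between 0.0921 and 0.129), with log2 fold changes between -1.16 and -0.74 over the libraries left out. An annotated gene on the other strand, Gm68532, overlaps Klhl31, and since no source used here gives the strand setting of the counting, reads of the pair cannot be told apart.

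Klhl33 and Klhl38, both of the muscle-restricted list, were also called lower. Klhl33, on the minus strand of chr14:51126039-51134964, had 21.2, 36.7 and 31.0 CPM in HSALR replicates 1, 2 and 3, against 58.6, 46.7 and 44.7 CPM in WT replicates 1, 2 and 3. Klhl38, on the minus strand of chr15:58163791-58188150, had 27.0, 30.4 and 24.2 CPM in HSALR replicates 1, 2 and 3, against 45.9, 43.1 and 34.9 CPM in WT replicates 1, 2 and 3. For both genes every HSALR library lay below every WT library, with a gap of less than 10 CPM between the nearest libraries. The log2 fold change of Klhl33 was -0.75 ± 0.20 (SE, adjusted p = 0.0468, edgeR), and that of Klhl38 was -0.60 ± 0.15 (SE, adjusted p = 0.0375, edgeR). Both calls were lost without HSALR replicate 3 and without any 1 of the WT libraries, at adjusted p between 0.113 and 0.186 for Klhl33 and between 0.0753 and 0.167 for Klhl38. That of Klhl33 was also lost with limma-voom (adjusted p = 0.0508). The counts of Klhl33 were not whole in 5 libraries, that is, some of its reads were divided with other genes. Klhl38 overlaps Gm15943 and Gm62284 on the other strand.

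Klhl21, an adaptor that targets Aurora B during cell division in human cells, was the 1 called member outside the muscle-restricted list. On the plus strand of chr4:152093260-152102138, it had 73.6, 90.8 and 76.4 CPM in HSALR replicates 1, 2 and 3, against 133, 109 and 115 CPM in WT replicates 1, 2 and 3. All HSALR values lay below all WT values, and the log2 fold change was -0.57 ± 0.14 (SE, adjusted p = 0.0393, edgeR). The call was lost without HSALR replicate 3 or any 1 WT library (adjusted p between 0.108 and 0.177). Klhl21 overlaps Gm9768 on the other strand. Klhl9 and Klhl13, which act with KLHL21 on Aurora B in human cells, had log2 fold changes of -0.11 ± 0.14 and 0.45 ± 0.26 and were not called.

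Over all genes, the calls moved with the length of the transcripts. By the weighted length in the tables, averaged over the 6 libraries, 16.7% of the protein-coding genes tested were called lower in the longest of 4 classes of equal size (3542 bases and more) and 1.24% in the shortest. Calls higher went the other way, with 8.07% in the shortest class and 2.7% in the longest. The shortest class held 0 members, and the called members lay in each of the 3 classes that held any. Klhl31 (6494 bases) and Klhl21 (3986 bases) were among the 12 members in the longest class, and Kbtbd12 (3316 bases) and Klhl33 (3154 bases) among the 18 in the next, where 8.98% of all genes were called lower. Klhl38, counted on 1 transcript of 2212 bases, was among the 10 members in the class below, where 4.85% of all genes were called lower. The canonical transcripts of GENCODE M39, which are not the lengths used in the tables, are longer for Kbtbd12, Klhl33 and Klhl38 (5456, 5513 and 6587 bases), and classes by those lengths put these 3 genes and Klhl31 in the longest class (5308 bases and more). The muscle-restricted genes that were not called have weighted lengths of 1935 to 3089 bases.

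Removing a trend on length from each library changed some of the calls, while the fold changes moved little. With the trend on canonical length removed, Kbtbd12 kept its call (log2 fold change -1.27, adjusted p = 0.00519, edgeR). Klhl21, Klhl31, Klhl33 and Klhl38 lost theirs (adjusted p between 0.0545 and 0.0787), at log2 fold changes of -0.59, -0.85, -0.71 and -0.53. With the trend on the weighted length removed, an alternative chosen after seeing the data, Kbtbd12 (-1.27, adjusted p = 0.00559) and Klhl38 (-0.65, adjusted p = 0.0406) kept the call. Klhl21, Klhl31 and Klhl33 lost it there (adjusted p between 0.0718 and 0.0837), at -0.51, -0.80 and -0.72. In both fits each of the 5 fold changes stayed within 1 SE of the value reported above.

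**Figure D4:**
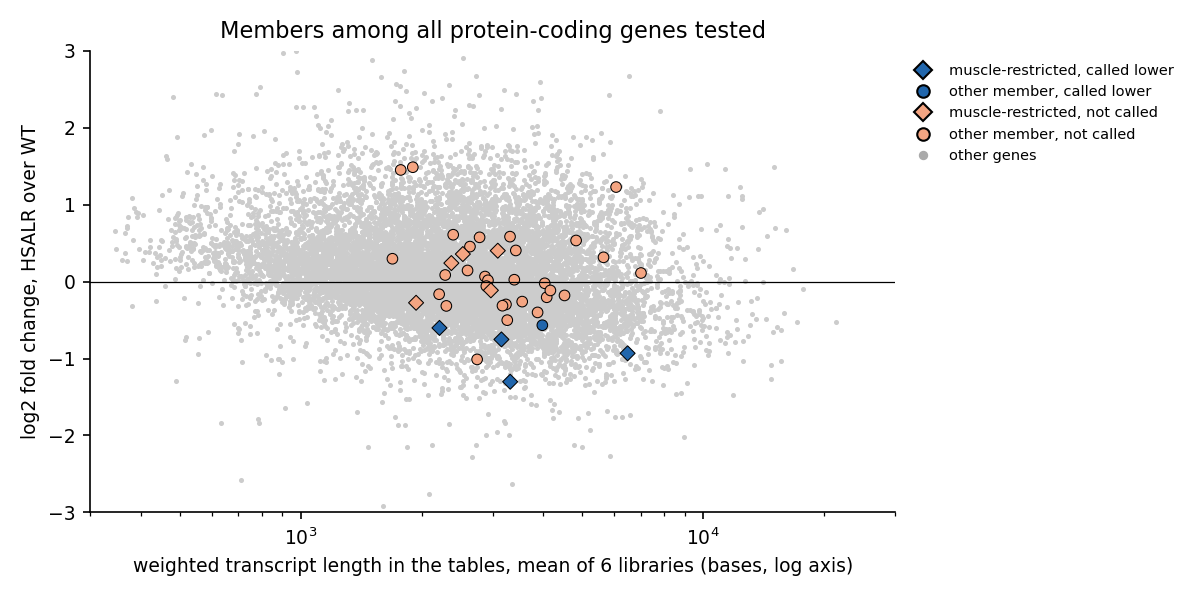
Log2 fold change of HSALR over WT against the weighted transcript length in the tables (mean of the 6 libraries, log axis, bases) for 12298 protein-coding genes tested, of which 24 lie outside the plotted ranges, with the 40 members as large symbols. The 5 members called lower (blue) lie between 2212 and 6494 bases, and 2 of them are among the 12 members of 3542 bases or more.

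The 3 Kelch-like genes of human nemaline myopathy did not fall with these. Klhl40, which stabilises nebulin and leiomodin 3 in the thin filament, had 105, 176 and 172 CPM in HSALR replicates 1, 2 and 3, against 106, 132 and 146 CPM in WT replicates 1, 2 and 3. Klhl41 had 289, 605 and 428 CPM in HSALR replicates 1, 2 and 3, against 330, 342 and 360 CPM in WT replicates 1, 2 and 3. For both genes HSALR replicate 1 lay below the WT libraries and the other HSALR libraries lay above them. The log2 fold changes were 0.24 ± 0.22 for Klhl40 (adjusted p = 0.467, edgeR) and 0.36 ± 0.24 for Klhl41 (adjusted p = 0.337, edgeR), and both were negative on TPM values (-0.35 and -0.27), where the median of all genes was -0.46. Kbtbd13, which binds actin filaments, had 14.8, 13.8 and 8.93 CPM in HSALR replicates 1, 2 and 3, against 14.8, 14.8 and 10.9 CPM in WT replicates 1, 2 and 3. The groups overlapped, although HSALR replicate 3 lay below the WT libraries (log2 fold change -0.11 ± 0.22, adjusted p = 0.753, edgeR). The counts of Klhl41 were not whole in any library. Klhl40 overlaps Hhatl and Gm47108, and Klhl41 overlaps Gm74770, on the other strand.

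Klhl30 and Klhl34 complete the muscle-restricted list. Klhl30 had 34.6, 70.4 and 66.5 CPM in HSALR replicates 1, 2 and 3, against 38.1, 44.1 and 47.9 CPM in WT replicates 1, 2 and 3. As for Klhl40 and Klhl41, HSALR replicate 1 was the lowest of all 6 libraries and the other HSALR libraries were the highest. Its log2 fold change was 0.40 ± 0.25 (adjusted p = 0.304, edgeR), and -0.22 on TPM values. Klhl34 had 9.23, 8.55 and 7.99 CPM in HSALR replicates 1, 2 and 3, against 4.17, 15.6 and 11.4 CPM in WT replicates 1, 2 and 3, so all HSALR values lay within the WT range (log2 fold change -0.28 ± 0.41, adjusted p = 0.675, edgeR).

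The values of Klhl30, Klhl40 and Klhl41 depended on HSALR replicate 1, the library with the highest 7SL and 7SK share. Without it, Klhl30 was called higher (log2 fold change 0.67, adjusted p = 0.00858, edgeR) and so was Klhl41 (0.60, adjusted p = 0.0243), while Klhl40 was not (0.45, adjusted p = 0.0582). With that share as a term in the fit, Klhl30 and Klhl41 were called higher (adjusted p = 0.00966 and 0.0085, edgeR), and Klhl40 had an adjusted p of 0.05003. The share was higher in every HSALR library than in every WT library, and by far the highest in HSALR replicate 1. This fit is therefore not independent of the group or of leaving out HSALR replicate 1. In contrast, the 5 members called lower were called lower without that library too, as was Kbtbd8. With that share in the fit, Kbtbd12 (log2 fold change -1.23, adjusted p = 0.00174, edgeR) and Klhl31 (-0.55, adjusted p = 0.0477) kept the call. Klhl21 (-0.43), Klhl33 (-0.35) and Klhl38 (-0.55) lost it in that fit (adjusted p between 0.115 and 0.263). The values of Klhl31 and Klhl33 were smaller there than the -0.93 and -0.75 without it, while that of Klhl38 was close to its -0.60.

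**Figure D5:**
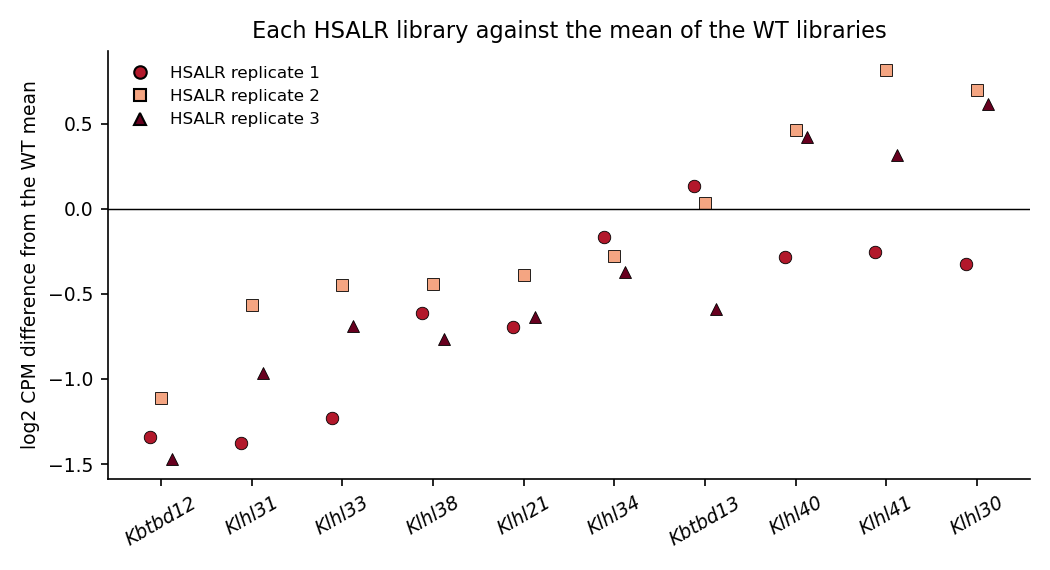
Log2 difference in CPM of each HSALR library from the mean of the 3 WT libraries, for the 5 members called lower and the other genes of the muscle-restricted list. All 3 HSALR libraries lie below 0 for the called genes, from -0.39 to -1.47, while replicate 1 lies on the other side of 0 from replicates 2 and 3 for Klhl40, Klhl41 and Klhl30.

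Ratios of counts between members of 1 library do not depend on library size or scaling. The pairs below were chosen after their values were seen, and the ratios, which are not corrected for length, are a description. Klhl31 had 1.05, 0.881 and 0.944 counts for each count of Klhl41 in HSALR replicates 1, 2 and 3, against 2.51, 2.10 and 2.28 in WT replicates 1, 2 and 3. Kbtbd12 had 0.790, 0.553 and 0.442 counts for each count of Klhl40 in HSALR replicates 1, 2 and 3, against 2.04, 1.56 and 1.44 in WT replicates 1, 2 and 3. The HSALR and WT ranges lay far apart for both pairs. The ratio of Klhl40 to Klhl41, both genes of nemaline myopathy, overlapped between the groups, at 0.291 to 0.401 in HSALR and 0.320 to 0.406 in WT.

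Promoters were compared because members of the muscle-restricted list moved in different ways. RefSeq promoters (250 bases before to 50 bases after a RefSeq transcript start, from a table on GRCm38.p6) were found for 34 of the 40 members, 7 of them on the muscle-restricted list. A match to the MEF2 motif, the binding motif of MEF2 transcription factors of muscle, occurred in the promoters of 3 members, all of them muscle-restricted, namely Kbtbd12 and Klhl33, called lower, and Klhl41, not called. MEF2 matches were in 3.19% of all 32851 promoters of the table. Counted by gene, with a match in any of its promoters, they were in 8.82% of the 34 members. The same count gave 42.9% of the 7 muscle-restricted ones, a list chosen for its expression in muscle. The E-box CANNTG, bound by MyoD and its relatives, was in 72.3% of all promoters. By gene, it was in 52.9% of the 34 members and in 85.7% of the 7. Shares by gene and by promoter are unlike measures, since some members have several promoters. Both motifs read the same on both strands. The 3 promoters with a MEF2 match are shown 5′ to 3′ on the strand of the gene, with MEF2 and E-box matches in capitals, and each matched GRCm39 exactly at 1 place.
Kbtbd12 promoter, chr6:88604362-88604661, minus strand: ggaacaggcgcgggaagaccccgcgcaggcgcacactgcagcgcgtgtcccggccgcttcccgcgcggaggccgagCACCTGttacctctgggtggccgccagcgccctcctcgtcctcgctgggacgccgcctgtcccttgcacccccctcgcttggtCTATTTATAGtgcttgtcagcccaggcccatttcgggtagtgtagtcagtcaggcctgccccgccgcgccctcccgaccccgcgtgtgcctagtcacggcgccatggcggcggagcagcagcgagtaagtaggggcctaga
Klhl33 promoter, chr14:51134891-51135190, minus strand: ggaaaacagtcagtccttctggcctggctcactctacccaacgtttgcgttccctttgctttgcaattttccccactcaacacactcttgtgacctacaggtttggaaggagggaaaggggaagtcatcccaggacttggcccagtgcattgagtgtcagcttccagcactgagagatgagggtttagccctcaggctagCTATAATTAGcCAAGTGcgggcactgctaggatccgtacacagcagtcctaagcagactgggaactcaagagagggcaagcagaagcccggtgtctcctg
Klhl41 promoter, chr2:69500214-69500513, plus strand: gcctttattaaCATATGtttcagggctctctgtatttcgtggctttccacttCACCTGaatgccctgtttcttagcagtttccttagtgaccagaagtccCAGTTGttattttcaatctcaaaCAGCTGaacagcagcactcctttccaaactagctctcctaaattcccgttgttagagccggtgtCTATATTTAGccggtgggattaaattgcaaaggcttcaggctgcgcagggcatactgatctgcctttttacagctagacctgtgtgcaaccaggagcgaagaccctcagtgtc
The MEF2 matches were CTATTTATAG in Kbtbd12, CTATAATTAG in Klhl33 and CTATATTTAG in Klhl41, beginning 91, 50 and 63 bases before the RefSeq start used. For Kbtbd12 that start lies inside the gene as annotated in GENCODE, within the first exon of the transcript of 6 exons and 5456 bases. Only a transcript of 647 bases begins at the 5′ end of the gene. Klhl33 has another start in the table, whose promoter holds no MEF2 match. The promoters of Klhl31, Klhl34, Klhl40 and Kbtbd13 held none in this window. A match describes the letters and shows neither binding nor a cause.

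Among the 30 members that were neither on the muscle-restricted list nor called, the extremes of the fold change were low in counts. Kbtbd8, which marks nucleolar proteins for neural crest formation in human cells and frogs, had 2.76, 2.10 and 1.48 CPM in HSALR replicates 1, 2 and 3, against 4.17, 4.11 and 4.39 CPM in WT replicates 1, 2 and 3. Kbtbd11 had 5.90, 2.50 and 5.71 CPM in HSALR replicates 1, 2 and 3, against 1.91, 1.72 and 2.38 CPM in WT replicates 1, 2 and 3. Neither gene overlapped between the groups, and neither was called by edgeR (Kbtbd8 -1.01 ± 0.30, adjusted p = 0.0583, and Kbtbd11 1.23 ± 0.37, adjusted p = 0.0595). DESeq2 called both, as did a fit on genes with at least 1 CPM in every library, and limma-voom called Kbtbd8 (adjusted p = 0.0498) but not Kbtbd11 (adjusted p = 0.103). Kbtbd8 overlaps its antisense gene Kbtbd8os.

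Klhl36 and Klhl6 had the highest fold changes and few reads, with a lower mean count in Klhl3 and Klhl4 alone. Klhl36 had 23, 13 and 26 counts in HSALR replicates 1, 2 and 3, against 12, 8 and 5 counts in WT replicates 1, 2 and 3, and a log2 fold change of 1.49 ± 0.49 (adjusted p = 0.0773, edgeR). Klhl6, known for its role in B cells, had 26, 17 and 22 counts in HSALR replicates 1, 2 and 3, against 2, 9 and 16 counts in WT replicates 1, 2 and 3. Its CPM values did not overlap between the groups, but the fold change of 1.45 ± 0.63 was not called (adjusted p = 0.150, edgeR). The 4 B cell markers listed summed to at most 0.18 TPM in any HSALR library and 0.31 TPM in any WT library and none had enough counts to be tested. Of 6 macrophage markers 5 were called higher, with a sum of 19.99 to 27.5 TPM in HSALR and 14.5 to 16.8 TPM in WT, and their part in the Klhl6 values was not tested.

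Of the better measured members, Klhl24 and Klhl12 came near the threshold. Klhl24, which targets keratins in skin, had 169.5, 193 and 155 CPM in HSALR replicates 1, 2 and 3, against 234, 223 and 228 CPM in WT replicates 1, 2 and 3 (log2 fold change -0.40 ± 0.14, adjusted p = 0.0881, edgeR). Klhl12, which modifies the coat protein SEC31 so that collagen can leave the endoplasmic reticulum, had 12.8, 17.2 and 15.7 CPM in HSALR replicates 1, 2 and 3, against 20.1, 23.8 and 20.9 CPM in WT replicates 1, 2 and 3 (-0.50 ± 0.15, adjusted p = 0.0611, edgeR). All HSALR values of both genes lay below all WT values. DESeq2 called Klhl24 lower (adjusted p = 0.0410) and not Klhl12 (adjusted p = 0.0669), and without HSALR replicate 2 edgeR called both (adjusted p = 0.0173 and 0.0310). The remaining 24 members had fold changes between -0.32 and 0.61 on the log2 scale and adjusted p above 0.11.

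The ligase that these adaptors serve was described from fixed lists. Of 14 genes of the CUL3 core and of neddylation, the attachment of NEDD8 that activates cullins, 2 were called lower and 0 higher (5 lower and 0 higher at an unadjusted p below 0.05, edgeR, and 2 lower and 0 higher with DESeq2 and with limma-voom), with a median of -0.26. The share called, 14.3%, was near the 11.8% of all genes. Cul3, the scaffold, had 80.8, 146 and 84.6 CPM in HSALR replicates 1, 2 and 3, against 215, 184 and 188 CPM in WT replicates 1, 2 and 3 (log2 fold change -0.92 ± 0.23, adjusted p = 0.0362, edgeR). The groups did not overlap, and the call was lost in 8 of 19 settings, among them without HSALR replicate 3 or any 1 WT library. Dcun1d2, which helps to attach NEDD8, averaged 49.8 ± 5.29 CPM in HSALR and 81.8 ± 4.66 CPM in WT (SD, n = 3 each, log2 fold change -0.72 ± 0.13, adjusted p = 0.0143, edgeR), a call also lost without those libraries. Of 10 subunits of the COP9 signalosome, which removes NEDD8, 0 were called by edgeR, DESeq2 or limma-voom. An unadjusted p below 0.05 (edgeR) was found for 3 of them, the lowest being Cops6 (-0.37 ± 0.12) and Cops2 (-0.36 ± 0.14). Over all genes, 4326 of 13576 had an unadjusted p below 0.05, a share close to that of both lists.

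Adaptors of CUL3 with another substrate domain included some with larger falls than most members. Of 13 such genes, 3 were called lower and 1 higher (30.8% called, against 11.8% of all genes), with a median of -0.52. The list was drawn up with earlier results known, and its counts are a description. Spop averaged 50.4 ± 7.36 CPM in HSALR and 101 ± 6.85 CPM in WT (SD, n = 3 each, log2 fold change -1.01 ± 0.15, adjusted p = 0.00663, edgeR), a call lost on TPM values and without WT replicate 1. Tnfaip1 (-0.78 ± 0.14) and Rhobtb2 (-0.84 ± 0.16) were called lower and Kctd17 (1.2 ± 0.26) was called higher, and these 3 calls were lost without HSALR replicate 3 or any 1 WT library. Among relatives with the same domains as the members but other symbols, Ipp had a log2 fold change of -0.89 ± 0.38 and was not called (adjusted p = 0.148, edgeR). Keap1, the oxidative stress sensor, averaged 33.7 ± 3.77 CPM in HSALR and 40.2 ± 2.54 CPM in WT (SD, n = 3 each, adjusted p = 0.218, edgeR).

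Of 35 genes listed as substrates, partners or pathway neighbours of Kelch-like proteins, 31 were tested, with 3 called lower, 1 higher and a median of 0.08 (4 lower and 2 higher with DESeq2, and 3 lower and 0 higher with limma-voom). The share called by edgeR, 12.9%, was near the 11.8% of all genes. Wnk1, a kinase that KLHL3 and KLHL2 target in kidney, had 171, 168 and 162 CPM in HSALR replicates 1, 2 and 3, against 389, 328 and 333 CPM in WT replicates 1, 2 and 3. Its groups lay far apart (log2 fold change -1.07 ± 0.14, adjusted p = 0.00529, edgeR), and the call was kept in all 19 settings. Ulk1, the autophagy kinase targeted by KLHL20, averaged 25.7 ± 4.35 CPM in HSALR and 52.5 ± 5.90 CPM in WT (SD, n = 3 each, -1.03 ± 0.16, adjusted p = 0.00873, edgeR). Irs1, an insulin receptor substrate whose link to a Kelch-like protein is uncertain, was called lower (-1.32 ± 0.22, adjusted p = 0.0101, edgeR). Dapk1, another KLHL20 substrate, was called higher (1.01 ± 0.25, adjusted p = 0.0339, edgeR), a call lost in 7 of 19 settings, among them limma-voom and without HSALR replicate 3 or any 1 WT library. Klhl20, Klhl2 and Klhl3 themselves had log2 fold changes of -0.20 ± 0.16, 0.58 ± 0.41 and 0.11 ± 0.47 and were not called. The known partners of the muscle-restricted members, picked out after their values were seen, were not called. Nebulin (Neb), at -1.03 ± 0.30, came close (adjusted p = 0.0549, edgeR) and was called lower in 6 of 19 other settings, DESeq2 among them. Filamin C (Flnc), at 0.55 ± 0.25 (adjusted p = 0.173, edgeR), was called higher in 2 settings, without HSALR replicate 1 and with the 7SL and 7SK covariate. Leiomodin 3 (Lmod3), at 0.21 ± 0.17 (adjusted p = 0.430, edgeR), was called in 0 settings.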

How the data were processed

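Total RNA of quadriceps was sequenced from 3 HSALR and 3 WT samples, grouped by the genotype in their titles. The stranded libraries were made after ribosomal RNA removal, per the labels. The authors deposited 1 table of 53947 genes per sample, made with RSEM 1.3.1, Bowtie2 and GRCm39 according to the submitters' processing notes, while the annotation release and strand setting are not given in the sources used here. The study's text describes neither their processing nor their test. The deposited expected counts are estimates by RSEM, which divides reads shared between genes. TPM values were computed by the authors from these counts and the effective length. The deposited length columns (other unit, in bases) are the mean transcript length per gene weighted by isoform abundance, whole or less fragment ends. FPKM was not used.

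Symbols and coordinates came from GENCODE M39, matched by gene identifier for 53400 genes. Expected counts were rounded, filtered with filterByExpr, scaled by TMM and entered in the robust quasi-likelihood test of edgeR (edgeR 4.0.16, limma 3.58.1, R 4.3.3) with group as the only term. The SE of a log2 fold change is its size over the root of F. Weighted lengths were tested on the log2 scale with limma for genes with at least 10 counts in every library. A count called whole was within 0.005 of a whole number. At these depths 3 counts correspond to 0.199 to 0.285 CPM, which covers counting error only. All pairs of libraries of a group differed beyond sampling noise (a chi-square of 9.07 or more per degree of freedom). Values per sample are given for called members and the muscle-restricted list, and for the other lists up to 4 called genes of lowest p, or 2 where none was called. Other names (Kbtbd8, Kbtbd11, Klhl36, Klhl6, Klhl12, Klhl24, Klhl2, Klhl9, Klhl13, Klhl20, Neb, Flnc, Lmod3) were chosen after their values were seen. Members and lists were chosen with earlier results of these data known. Alternatives were limma-voom, DESeq2 1.42.0, upper-quartile and RLE factors, limma-trend on TPM values (log2, pseudocount 0.1), other filters, protein-coding genes only, removal of the trend on canonical transcript length (loess, span 0.5), a covariate for the 7SL and 7SK share, a replicate block, each library left out and, added after seeing the data, an effective length offset and removal of the trend on weighted length.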

Additional observations from a re-analysis of the deposited data

How the results depend on the processing

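Of the genes named with a call, Wnk1 kept it in all 19 settings and Kbtbd12 in 17. Klhl31 lost its call in 8 settings, Klhl38 in 10, Klhl21 in 11 and Klhl33 in 12, all with the same sign. Members called lower numbered 5 in the fit reported, 0 on TPM values, 2 with upper-quartile factors, 1 with the trend on canonical length removed, 2 with that on weighted length removed, 2 with the 7SL and 7SK covariate, 1 with an effective length offset, and 1 to 8 with a library left out. Members called higher numbered 0 in the fit reported, 1 with DESeq2 and 1 with the 1 CPM filter (Kbtbd11), 3 with the covariate (Klhl23, Klhl30 and Klhl41), and 0 to 3 with a library left out. All genes called numbered 1597, but 2428 with DESeq2, 133 on TPM values, 935 with the covariate, 742 with the effective length offset, and 166 to 3294 with a library left out (3294 without HSALR replicate 2 and 166, 217, 211 and 185 without WT replicates 1, 2 and 3 and HSALR replicate 3). The members' median was -0.57 on TPM values, where that of all genes was -0.46, and -0.11 with the effective length offset, and was otherwise within 0.0971 of the value reported, the SD over HSALR libraries. The sign turned in 1 or more settings for 21 members, none of them called in the fit reported or where it turned. These were 15 members on TPM values, among them Klhl30 (-0.22), Klhl40 (-0.35), Klhl41 (-0.27), Klhl5 (-0.18) and Klhl13 (-0.13), 6 with the covariate, and 12 without a single library, among them Kbtbd13 (-0.25 to 0.081), Klhl34 (-0.65 to 0.14), Klhl2 (-0.016 without HSALR replicate 3) and Klhl23 (-0.021 without HSALR replicate 2). Members with a called weighted length numbered 1, and 0 to 1 with a library left out. The causes of these changes were not tested.

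Whether equal replicate numbers paired the samples could not be decided from so few libraries. Deviations of HSALR and WT libraries of the same number correlated at 0.00052, -0.095 and 0.23, against -0.17 to 0.16 for unlike numbers. Summed adipocyte markers rose with the replicate number in both groups. They were 3.16, 22.98 and 163 TPM in HSALR replicates 1, 2 and 3, and 1.82, 18.95 and 62.5 TPM in WT replicates 1, 2 and 3. With the replicate block 799 genes, 1 member lower (Kbtbd12) and 0 members with a weighted length difference were called. Members under about 1 CPM rest on few counts, which limits Klhl3, Klhl4, Klhl6 and Klhl36.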
